A study of Homo sapiens with 6 samples.

Results

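The 30 genes examined here encode mitotic and G2/M proteins: cyclins and their kinase, checkpoint and centromere proteins, kinesins, spindle factors and cytokinesis factors. They were taken by symbol from a list of mitotic genes, chosen with earlier results of these data known, so counts over them are descriptions. All 30 were found among the 58735 genes of the deposited table, and all 30 were among the 12258 genes expressed highly enough to be tested. The RNA came from A375, a human malignant melanoma line, as poly-A enriched RNA-seq of 2 groups of 3 libraries. PAL libraries were from cells given Ringer's lactate solution activated by low-temperature plasma, and control libraries from cells without that treatment. Dose, exposure time, the control's own solution and the origin of the replicates (separate cultures or not) were not given in the sources used here. Therefore p-values reflect only how much these libraries vary, and that variation may be technical. The PAL column names also hold a 64 that no label explains.

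Assigned reads ranged from 16053009 to 17711389 in PAL libraries and from 15064971 to 16081733 in control libraries. The melanocyte regulator SOX10 was expressed, at 108 ± 0.944 FPKM in PAL and 88.1 ± 1.68 FPKM in control libraries (SD, n = 3 each), whereas the pigment genes PMEL, MLANA, TYR, TYRP1 and DCT were all below the level for testing and TYR was at 0 in all 6 libraries. Of the 9 melanocyte lineage markers 4 were tested: SOX10 was higher in PAL, S100B lower (4.03 ± 0.180 FPKM in PAL and 5.18 ± 0.573 FPKM in control libraries, limma adjusted p = 0.0300), and MITF and S100A1 did not pass. All 9 summed to 117 to 118 FPKM in PAL and 98.2 to 101 FPKM in control libraries, most of it SOX10. Summed markers came to 30.8 to 33.4 FPKM in PAL and 31.5 to 36.4 FPKM in control for keratinocytes, mostly KRT10, and to at most 5.15 FPKM in any library for fibroblasts, leukocytes and endothelial cells. The inducible HSP70 genes HSPA6, HSPA1A and HSPA1B together stood at 100.1 to 235 FPKM in PAL and at 3939 to 4293 FPKM in control libraries, so the control libraries carry the larger amount of these stress transcripts. Their part in the mitotic results was not tested. The series title speaks of lower heat shock proteins with PAL, the direction the sample labels give here. Nothing independent of the labels was found to check them, and every direction given here would turn if the labels of the groups were exchanged, which was not tested. In bulk RNA, fewer cells in mitosis and less mitotic RNA per cell cannot be told apart.

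Mitotic genes are transcribed in a wave that begins in late S phase and peaks in G2 and M. Cyclin A and cyclin B with CDK1 drive entry into mitosis, the Aurora and Polo kinases build the spindle, and the spindle checkpoint holds the anaphase-promoting complex (APC/C) until every kinetochore is attached. The APC/C then marks securin and cyclin B for destruction, and the central spindle and the contractile ring divide the cell. Many of these promoters carry a cell cycle genes homology region (CHR), bound by the DREAM and B-MYB-MuvB complexes, together with CCAAT boxes bound by NF-Y. Levels of these transcripts are widely used as a measure of proliferation in tumours, melanoma included.

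The promoters of ANLN, CENPE, MKI67 and TOP2A are shown because these were the 2 members with the largest change and the next 2 by p-value. Each line gives the 250 bases before the RefSeq start of the gene, 5′ to 3′ on the strand of the gene, from the RefSeq table on GRCh38.p14. Capitals mark TTTGAA, a common form of the CHR, and CCAAT on either strand, so the reverse strand appears as TTCAAA and ATTGG. The windows lie at chr7:36389612-36389861 on the plus strand for ANLN, and on the minus strand at chr4:103198344-103198593 for CENPE, chr10:128126424-128126673 for MKI67 and chr17:40417897-40418146 for TOP2A.
ANLN: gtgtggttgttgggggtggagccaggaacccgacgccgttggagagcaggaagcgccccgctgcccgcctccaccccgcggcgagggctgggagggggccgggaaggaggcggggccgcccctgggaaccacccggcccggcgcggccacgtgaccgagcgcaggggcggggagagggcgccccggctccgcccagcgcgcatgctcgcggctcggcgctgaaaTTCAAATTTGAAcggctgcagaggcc
CENPE: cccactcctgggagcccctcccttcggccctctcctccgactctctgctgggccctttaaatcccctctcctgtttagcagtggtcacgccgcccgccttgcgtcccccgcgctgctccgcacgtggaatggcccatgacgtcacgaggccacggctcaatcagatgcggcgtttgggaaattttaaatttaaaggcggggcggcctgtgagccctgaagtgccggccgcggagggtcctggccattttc
MKI67: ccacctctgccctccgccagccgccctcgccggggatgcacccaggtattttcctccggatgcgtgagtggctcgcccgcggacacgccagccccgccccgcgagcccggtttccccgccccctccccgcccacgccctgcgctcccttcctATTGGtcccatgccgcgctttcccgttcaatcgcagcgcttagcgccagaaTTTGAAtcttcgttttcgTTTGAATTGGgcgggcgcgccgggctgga
TOP2A: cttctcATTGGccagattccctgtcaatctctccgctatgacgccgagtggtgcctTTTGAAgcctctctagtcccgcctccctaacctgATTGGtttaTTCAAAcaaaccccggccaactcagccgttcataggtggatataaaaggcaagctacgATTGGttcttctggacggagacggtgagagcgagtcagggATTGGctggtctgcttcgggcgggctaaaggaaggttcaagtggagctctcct
In the ANLN window, TTTGAA begins 26 bases before the start on the reverse strand and 20 bases before it on the forward strand, side by side. MKI67 holds TTTGAA at 47 and 29 bases before the start, the nearer copy sharing its last base with a reversed CCAAT. TOP2A holds 4 reversed CCAAT boxes, the nearest 53 bases before the start, and TTTGAA at 194 and, reversed, 151 bases before it, and the CENPE window holds none of these letters. Of the 30 members, 25 matched the table by symbol (AURKA, BUB3, TPX2, TTK and UBE2C did not), 5 of them with more than 1 start, and a motif at any start was counted. TTTGAA was found in 15 of 25 members, against 11.4% of the 8571 tested genes with an entry and 13.3% of all 35116 windows. CCAAT was found in 21 of 25 members, against 42.2% of the tested genes and 32.0% of all windows. The other CHR form searched, TTCGAA, was in 0 of 25 members, against 2.04% of the tested genes. Among the members that were lower in PAL, 6 of 9 held TTTGAA and 5 of 9 held CCAAT. Among the others, 9 of 16 held TTTGAA and 16 of 16 held CCAAT. A match describes these letters in these windows and was not tested as a binding site.

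The comparison of PAL with control asked whether the mitotic transcripts differ with treatment. A part of the programme was lower in PAL: 10 of 30 members fell and 0 rose, where 14.5% of all tested genes were lower and 11.4% higher. With voom on recovered reads the counts were 12 lower and 0 higher, against 18.2% and 13.4% of all tested genes. At an unadjusted limma p under 0.05 they were 14 and 0. The share of all tested genes at that unadjusted threshold was not counted, so nothing is read from it. The same holds for the counts before adjustment given below by role and list. The falls were small, at most 17.9% of the control mean, and were largest for ANLN, CENPE, KIF23, TOP2A and MKI67, whose proteins shape chromosomes, kinetochores and the cleavage furrow. Of the genes that drive entry into mitosis, CCNB1, CDK1, PLK1 and AURKA, named here after their values were seen, differed from their control means by at most 1.38% as deposited. Over the 17 alternatives their log2 fold changes ranged from -0.010 to 0.111, -0.032 to 0.099, -0.027 to 0.084 and -0.053 to 0.082. None passed in any alternative. The mean differences of CCNB2, CDC25C and CCNA2 were -3.01%, -7.82% and -9.38%, and none of these 3 passed. The test was limma on log2(FPKM + 1) across all tested genes, adjusted by Benjamini-Hochberg, calling genes under 0.05. The median log2 fold change was -0.097 over the members and 0.0043 over all tested genes. All PAL libraries were below all control libraries in 13 of 30 members and above them in 0, against 23.6% and 21.4% of the tested genes. These counts depended on the scaling. With TPM, 5 members were lower and 2 higher (9.54% and 22.0% of all tested genes), with quantile normalization 5 and 1 (11.6% and 16.9%), and with plain read totals, chosen after seeing the data, 5 and 2 (9.22% and 25.3%). The members' median stayed below that of all genes by 0.103, 0.090 and 0.091 in these scalings, against 0.101 with values as deposited.

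**Figure D1:**
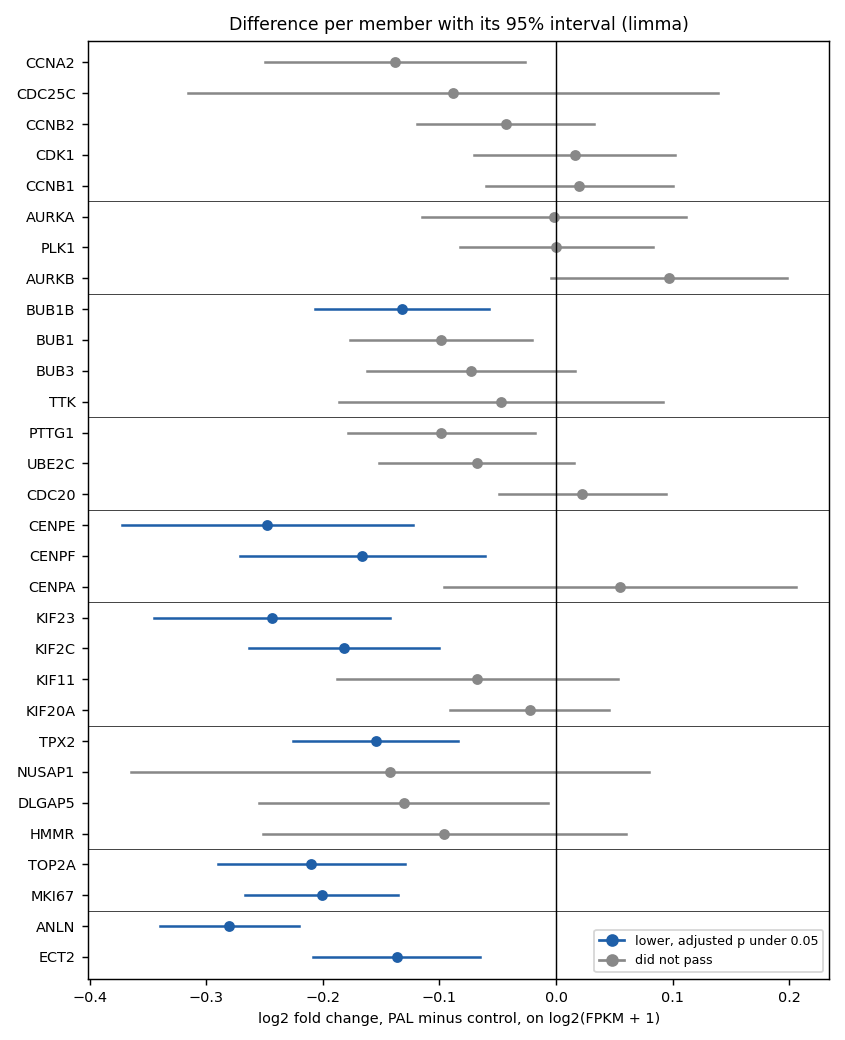
Difference of each member between PAL and control in mean log2(FPKM + 1), with the 95% interval from limma, in rows grouped by role and divided by thin lines. The 10 members drawn in blue fell at an adjusted p under 0.05. With values as deposited, the points of CCNB1, CDK1, PLK1 and AURKA lie beside 0.

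Both cytokinesis members, ANLN and ECT2, fell (2 of 2), and so did KIF23, 1 of the 4 mitotic kinesins, which also acts in cytokinesis. ANLN, an actin-binding scaffold of the contractile ring (chromosome 7, 36389806 to 36453791), was at 54.5, 52.9 and 53.9 FPKM in PAL libraries and 66.6, 64.6 and 65.3 FPKM in control libraries. The groups were far apart beside their spread. ANLN fell by 17.9%, a log2 fold change of -0.28 ± 0.025 (SE, limma adjusted p = 5.31e-04), and passed in all 17 alternatives. KIF23, a kinesin of the central spindle (chromosome 15, 69414246 to 69448427), was at 23.2, 22.3 and 23.4 FPKM in PAL and 27.4, 28.8 and 25.9 FPKM in control libraries. It fell by 16.2%, a log2 fold change of -0.24 ± 0.043 (limma adjusted p = 0.00790), and also passed in all 17 alternatives. ECT2, the exchange factor that activates RhoA at the cell equator (chromosome 3, 172750682 to 172821474), was at 22.1, 22.7 and 21.9 FPKM in PAL and 25.1, 24.4 and 24.1 FPKM in control libraries. It fell by 9.41%, with no overlap between groups (limma adjusted p = 0.0182). The call of ECT2 depended on single libraries: leaving out PAL replicate 1, PAL replicate 3 or control replicate 1 gave adjusted p-values of 0.0630, 0.0558 and 0.0573 in limma. It passed in 9 of the 17 alternatives, where its adjusted p spanned 0.00602 to 0.204. KIF20A, the kinesin that carries the Aurora B complex to the midzone, was at 47.9, 47.4 and 47.9 FPKM in PAL and 49.8, 48.8 and 47.0 FPKM in control libraries. Its groups overlapped and it did not pass (log2 fold change -0.023, 95% interval -0.091 to 0.046, limma adjusted p = 0.606).

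Both genes of chromosome structure fell. TOP2A, the topoisomerase that untangles sister chromatids (chromosome 17, 40388516 to 40417950), was at 82.7, 80.0 and 83.6 FPKM in PAL and 96.7, 97.55 and 91.1 FPKM in control libraries. It fell by 13.7% (limma adjusted p = 0.00583) and passed in 16 of 17 alternatives. MKI67, which encodes the Ki-67 protein that coats mitotic chromosomes (chromosome 10, 128096659 to 128126385), was at 34.7, 36.2 and 35.4 FPKM in PAL and 40.2, 41.3 and 41.1 FPKM in control libraries. Control values did not overlap PAL values in either gene. MKI67 fell by 13.3% (limma adjusted p = 0.00335) and passed in all 17 alternatives.

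The centromere genes split. CENPE, a large kinesin that captures microtubules at kinetochores (chromosome 4, 103105806 to 103198409), was at 8.50, 8.39 and 8.41 FPKM in PAL and 9.87, 11.1 and 9.69 FPKM in control libraries. It fell by 17.5%, a log2 fold change of -0.25 ± 0.053 (limma adjusted p = 0.0158). With PAL replicate 2 left out it just missed the threshold, at the highest of its 17 alternative values (adjusted p = 0.0552, lowest 6.11e-04). CENPF, a protein of the outer kinetochore (chromosome 1, 214603195 to 214664588), was at 33.7, 31.9 and 32.3 FPKM in PAL and 36.0, 39.1 and 35.2 FPKM in control libraries. CENPF fell by 11.2% (limma adjusted p = 0.0341), with groups that do not overlap but lie close. CENPF missed the threshold when any library but control replicate 3 was left out: 0.0520, 0.107 and 0.0857 were its adjusted p-values without PAL replicates 1, 2 and 3, and 0.0613 and 0.0700 without control replicates 1 and 2. CENPF passed in 5 of the 17 alternatives, which gave adjusted p-values of 0.00197 to 0.203. CENPA, the histone H3 variant that marks the centromere, was at 14.7, 16.6 and 15.7 FPKM in PAL and 16.03, 13.9 and 15.3 FPKM in control libraries. Its groups overlapped and it did not pass (limma adjusted p = 0.567).

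Of the 4 mitotic kinesins, KIF2C fell beside KIF23 (2 of 4), and of the 4 spindle-associated members TPX2 did (1 of 4). KIF2C, which removes tubulin from microtubule ends (chromosome 1, 44739818 to 44767767), was at 42.0, 39.9 and 42.4 FPKM in PAL and 47.2, 45.8 and 48.4 FPKM in control libraries. It fell by 12.1% (limma adjusted p = 0.0106). TPX2, which activates Aurora A on spindle microtubules (chromosome 20, 31739271 to 31801805), was at 80.4, 77.8 and 77.4 FPKM in PAL and 88.3, 89.6 and 84.8 FPKM in control libraries. TPX2 fell by 10.3% (limma adjusted p = 0.0112), and groups did not overlap in either gene. Both calls held with each single library left out. They were lost with TPM (adjusted p = 0.0616 for KIF2C and 0.0911 for TPX2) and with plain read totals (adjusted p = 0.0663 and 0.128), and that of TPX2 also with quantile normalization (adjusted p = 0.118). In the 17 alternatives adjusted p spanned 9.61e-04 to 0.0663 for KIF2C and 0.00101 to 0.128 for TPX2. KIF11, the motor that pushes spindle poles apart, averaged 43.6 ± 0.975 FPKM in PAL and 45.8 ± 3.20 FPKM in control libraries (SD, n = 3 each). HMMR, a spindle pole protein, averaged 25.4 ± 0.897 FPKM in PAL and 27.3 ± 2.53 FPKM in control libraries. DLGAP5, a stabilizer of kinetochore fibres, averaged 24.1 ± 0.631 FPKM in PAL and 26.5 ± 1.90 FPKM in control libraries. These 3 did not pass, with adjusted p-values of 0.366 for KIF11, 0.321 for HMMR and 0.111 for DLGAP5 in limma. Each passed as lower without control replicate 3, with adjusted p-values of 0.0386 (range 0.0386 to 0.983), 0.0437 (range 0.0437 to 0.895) and 0.0349 (range 0.0349 to 0.512) in limma. DLGAP5 also passed as lower with voom on recovered reads (adjusted p = 0.0448). NUSAP1, a microtubule bundler, was at 4.75, 5.69 and 5.34 FPKM in PAL and 6.31, 6.41 and 5.05 FPKM in control libraries, and did not pass (95% interval of the log2 fold change -0.36 to 0.080). It shares 62.2% of its exon bases with another GENCODE gene, so its reads may be split and its level is uncertain.

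**Figure D2:**
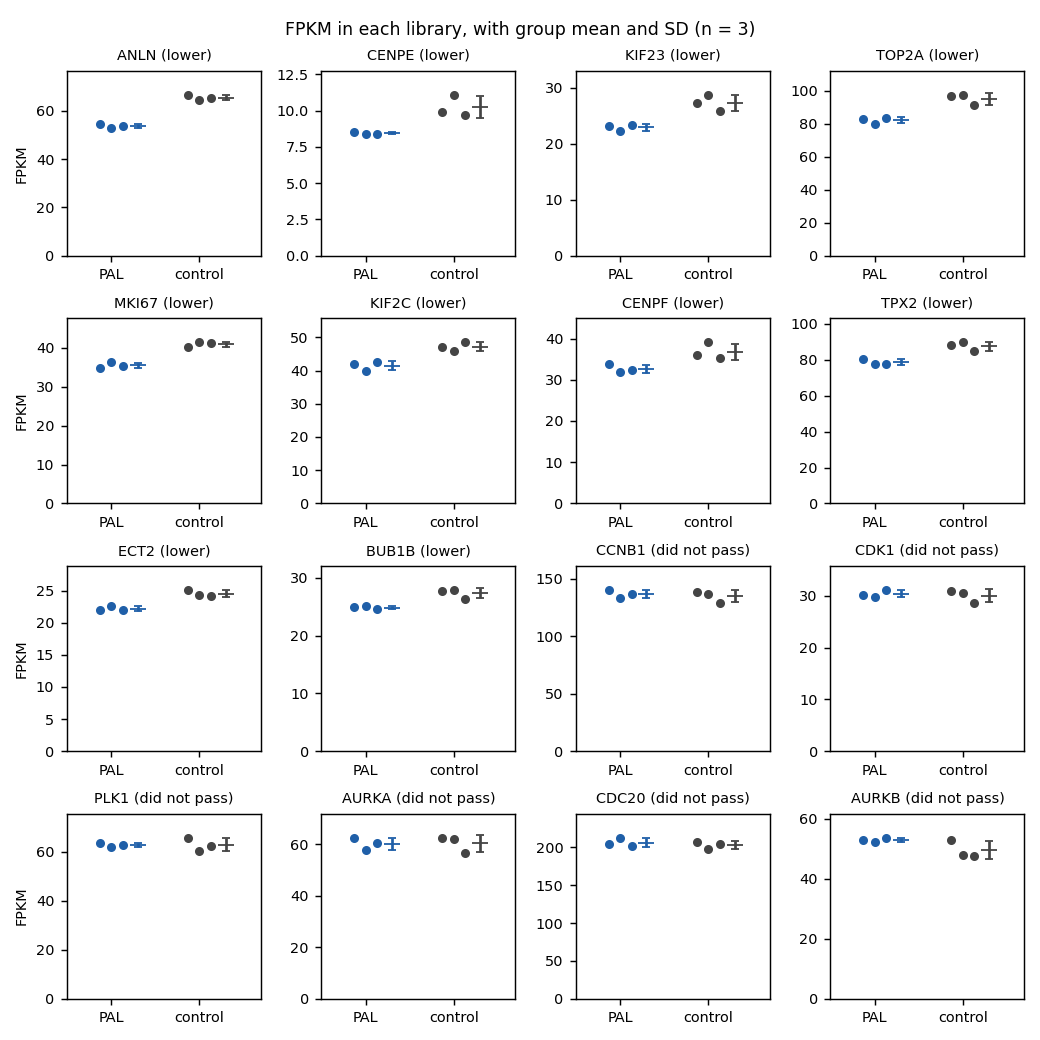
FPKM of the 10 members that fell, in order of fold change, and of 6 that did not pass, with 1 point per library and beside the points the group mean with its SD (n = 3). PAL is on the left and control on the right of each panel, and every vertical axis starts at 0. ANLN is at 52.9 to 54.5 FPKM in PAL and 64.6 to 66.6 FPKM in control libraries, while PLK1 is at 61.9 to 63.6 FPKM in PAL and 60.4 to 65.6 FPKM in control libraries.

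Of the spindle checkpoint genes, BUB1B alone passed. BUB1B, which encodes BubR1, an inhibitor of the APC/C (chromosome 15, 40161023 to 40221136), was at 24.9, 25.1 and 24.6 FPKM in PAL and 27.8, 27.9 and 26.4 FPKM in control libraries. It fell by 9.09% (limma adjusted p = 0.0235). The groups were apart by less than the range within control. BUB1B, too, missed the threshold when any library but control replicate 3 was left out: 0.0674, 0.0613 and 0.0671 were its adjusted p-values without PAL replicates 1, 2 and 3, and 0.0709 and 0.0741 without control replicates 1 and 2. It passed in 8 of the 17 alternatives, where its adjusted p spanned 0.0110 to 0.273. BUB1B shares 10.2% of its exon bases with a readthrough gene, and PLK1 12.5% with other genes. BUB1, the kinase that recruits checkpoint proteins to kinetochores, was at 16.4, 16.04 and 15.4 FPKM in PAL and 17.2, 17.2 and 17.0 FPKM in control libraries. Its groups did not overlap, yet it did not pass (limma adjusted p = 0.0683). BUB3, their WD-repeat partner, averaged 30.3 ± 0.939 FPKM in PAL and 32.0 ± 1.16 FPKM in control libraries, and TTK, the kinase MPS1 that starts checkpoint signalling, 10.9 ± 0.277 FPKM in PAL and 11.3 ± 0.921 FPKM in control libraries (SD, n = 3 each). Neither passed, with adjusted p-values of 0.199 for BUB3 and 0.597 for TTK in limma.

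None of the 5 genes of the cyclin and CDK1 switch passed in limma (0 of 5), though CCNA2 alone was under 0.05 before adjustment and passed with voom (1 of 5 each). CCNB1, cyclin B1 (chromosome 5, 69167010 to 69178245), was at 140.2, 134 and 137 FPKM in PAL and 139, 137 and 129 FPKM in control libraries. CDK1, the kinase it activates (chromosome 10, 60778331 to 60794852), was at 30.2, 29.8 and 31.1 FPKM in PAL and 30.9, 30.6 and 28.7 FPKM in control libraries. Values of both genes overlapped, and the 95% intervals of the log2 fold change were -0.060 to 0.10001 for CCNB1 and -0.070 to 0.102 for CDK1. CCNB2, cyclin B2, averaged 34.9 ± 1.14 FPKM in PAL and 36.0 ± 0.618 FPKM in control libraries (95% interval -0.12 to 0.033). CCNA2, cyclin A2, which acts from S phase on, was at 54.4, 56.3 and 52.9 FPKM in PAL and 62.5, 61.9 and 56.0 FPKM in control libraries. Only control replicate 3 came within the PAL range, and CCNA2 did not pass (log2 fold change -0.14 ± 0.047, limma adjusted p = 0.0720). It passed as lower without control replicate 3 (adjusted p = 0.0138), with voom on recovered reads (adjusted p = 0.0181) and without both libraries numbered 3 (adjusted p = 0.0255). The 17 alternatives gave adjusted p-values of 0.0138 to 0.418. CDC25C, the phosphatase that activates CDK1, was the lowest member, at 4.43, 4.04 and 3.95 FPKM in PAL and 4.41, 3.82 and 5.24 FPKM in control libraries, with as few as 189 reads in a library. Its interval of -0.32 to 0.14 is the widest of the members.

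None of the Polo and Aurora kinase genes passed in limma (0 of 3, also before adjustment and with voom). PLK1, which acts in entry, spindle building and cytokinesis, was at 63.6, 61.9 and 62.6 FPKM in PAL and 65.6, 60.4 and 62.2 FPKM in control libraries (95% interval of the log2 fold change -0.082 to 0.083). AURKA, the kinase of spindle poles, was at 62.3, 57.7 and 60.6 FPKM in PAL and 62.5, 62.0 and 56.4 FPKM in control libraries (95% interval -0.11 to 0.11). AURKB, the kinase of the chromosomal passenger complex, was at 53.0, 52.2 and 53.7 FPKM in PAL and 52.9, 47.9 and 47.7 FPKM in control libraries. AURKB was high in 1 control library and did not pass (log2 fold change 0.097 ± 0.043, limma adjusted p = 0.141). It passed as higher without control replicate 1 (adjusted p = 0.0219), with TPM (adjusted p = 0.0334) and with plain read totals (adjusted p = 0.0194). Its adjusted p spanned 0.0194 to 0.426 in the 17 alternatives.

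None of the 3 genes of the APC/C step passed in limma or with voom (0 of 3), and 1 of 3 was under 0.05 before adjustment. CDC20, its activator and the highest member, was at 204, 213 and 201 FPKM in PAL and 207, 197 and 204 FPKM in control libraries. Values overlapped (95% interval -0.049 to 0.094, limma adjusted p = 0.622), but CDC20 passed as higher with TPM (adjusted p = 0.0401), quantile normalization (adjusted p = 0.0172) and plain read totals (adjusted p = 0.0311). The 17 alternatives gave adjusted p-values of 0.0172 to 0.997. UBE2C, the ubiquitin-conjugating enzyme that works with the APC/C, averaged 127 ± 3.18 FPKM in PAL and 133 ± 5.26 FPKM in control libraries (SD, n = 3 each), and did not pass (limma adjusted p = 0.200). PTTG1, securin, the inhibitor of separase, whose close copy PTTG2 is listed at 0 in every library, was at 63.5, 62.1 and 62.7 FPKM in PAL and 68.0, 69.6 and 64.2 FPKM in control libraries. Its groups did not overlap, yet it did not pass (limma adjusted p = 0.0740). PTTG1 passed as lower without control replicate 3 (adjusted p = 0.0196) and without both libraries numbered 3 (adjusted p = 0.0410). Its adjusted p spanned 0.0196 to 0.783 in the 17 alternatives.

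Over the members, with values as deposited, 1 control library lay nearer to PAL than the other controls, but not over all genes. Control replicate 3 was the lowest of the 3 control libraries in 23 of 30 members, where it was the lowest in 35.2% of all tested genes. Summed over the members, FPKM came to 1466, 1450 and 1445 in PAL replicates 1, 2 and 3, and to 1571, 1543 and 1485 in control replicates 1, 2 and 3. With values as deposited, the summed level was thus lower in all 3 PAL libraries than in any control library. The gap was smallest to control replicate 3. With plain read totals this order did not hold, and the sum of control replicate 3 was below that of every PAL library. Over all genes that library was not the nearest to PAL by chi-square per degree of freedom, at 35.4 to 40.5 against the PAL libraries. Control replicate 1 was at 33.1 to 38.4 and control replicate 2 at 35.0 to 40.05, almost the same. This measure grows with read depth, which differed between libraries. Without control replicate 3, 15 of 30 members were lower and 0 higher, the 10 called with all libraries and CCNA2, PTTG1, KIF11, HMMR and DLGAP5, where 12.6% of all genes tested were lower and 10.1% higher. Leaving out PAL replicate 1, 2 or 3 gave 7 lower and 0 higher members each, against 10.2%, 9.70% and 12.0% of all genes lower and 6.25%, 5.55% and 7.85% higher. Leaving out control replicate 1 or 2 gave 7 and 8 lower, AURKB being higher without control replicate 1, against 10.8% and 9.76% of all genes lower and 7.78% and 6.64% higher. Without both libraries numbered 3, chosen after seeing the data, 10 members were lower, of which 8 were among the first 10, against 10.8% of all genes lower and 7.98% higher. With voom on recovered reads 12 were lower (18.2% of all genes lower, 13.4% higher), and with no filter 9 (4.53% and 2.59%), no variance trend 9 (13.6% and 10.1%) or a replicate block, given in the closing section, 7 (10.5% and 6.84%). Changing the pseudocount to 0.5 or 0.1 or filtering on the mean left 10 (14.4% to 14.5% of all genes lower, 11.2% to 11.4% higher).

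**Figure D3:**
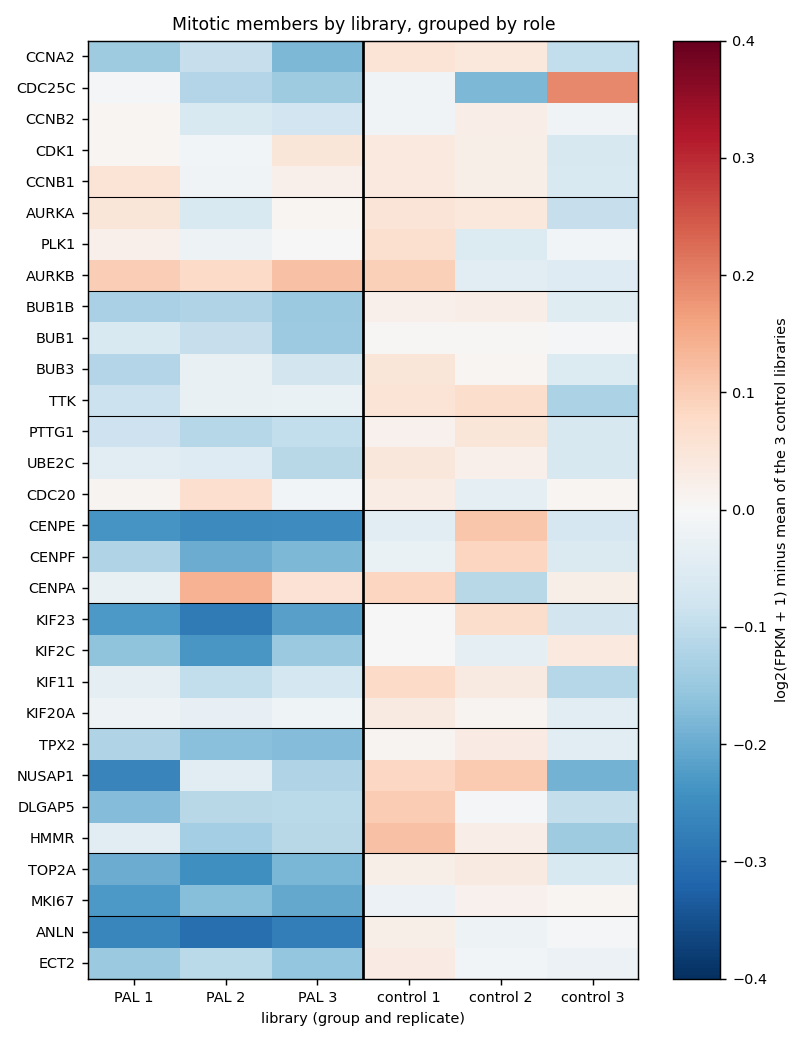
Each member's log2(FPKM + 1) in each library minus its mean over the 3 control libraries, with PAL libraries on the left, control libraries on the right and rows grouped by role. Blue is lower and red is higher. Control replicate 3 is the lowest control library in 23 of 30 rows, and ANLN, CENPE, KIF23, TOP2A and MKI67 are blue in all 3 PAL libraries.

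The members that fell were on average longer than the others. The deposited length equals the bases covered by a gene's GENCODE 29 exons for 30 of 30 members. Its median was 6225 bases over the 10 members that fell (3605 to 12807) and 3133 bases over the other 20 (1286 to 8300). Over tested protein-coding genes the medians lay closer, at 5366 bases for the 1668 that were lower and 5043 bases for the others. Of the 9 members of at least 5 kb, 7 fell, and of the 21 shorter ones, 3 did. At the same split, 906 of 5284 longer protein-coding genes (17.1%) and 762 of 5054 shorter ones (15.1%) were lower. Across the 30 members, length and log2 fold change had a Spearman rho of -0.58, and genomic span a rho of -0.57, given as descriptions because the genes share libraries. Over 10338 tested protein-coding genes the rho was -0.16 for length and -0.24 for span. Of the 2068 shortest of these genes, up to 2945 bases, 13.6% were lower and 16.3% higher in PAL, with a median log2 fold change of 0.046. Of the 2068 longest, from 8181 bases, 18.2% were lower and 6.14% higher, with a median of -0.045. The part of length in the members' falls was not tested.

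**Figure D4:**
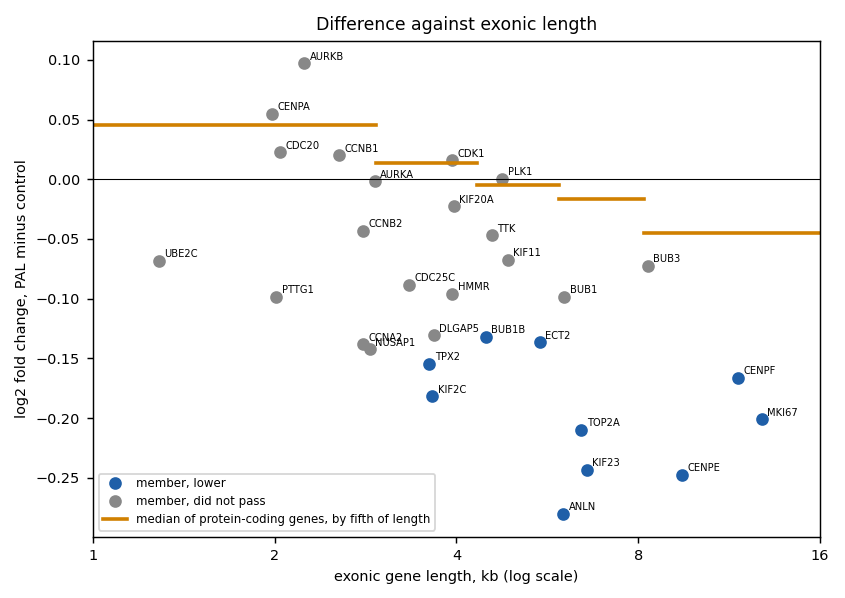
Log2 fold change of each member, PAL minus control, against its exonic length in kb on a log scale. Blue points fell at an adjusted p under 0.05, grey points did not pass, and orange bars are medians of protein-coding genes in 5 ranges of length, at 0.046 for the shortest and -0.045 for the longest. The axis ends at 16 kb, inside the range of the longest genes, and the members that fell lie at 3605 bases and above.

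Beyond the members, 10 further lists of mitotic genes, grouped by role, held 138 tested genes, of which 28 were lower and 12 higher in PAL (medians of -0.012 for these genes and 0.0043 for all tested genes). The 28 lower genes are 20.3% of those tested, against 14.5% of all genes, but this balance turned with the scaling. With TPM 11 were lower and 26 higher (7.97% lower, against 9.54% of all genes), with plain read totals 11 and 32 (7.97%, against 9.22%), and with quantile normalization 16 and 22 (11.6%, against 11.6%). Among condensin and cohesin genes 11 of 20 were lower (55%, against 14.5% of all genes) and 1 higher, with a median log2 fold change of -0.13. This count was 2 lower with TPM and with plain read totals, and 6 with quantile normalization, where the medians were -0.073, -0.055 and -0.097. It also depended on single libraries, at 5, 4 and 8 lower without PAL replicates 1, 2 and 3. Without control replicates 1, 2 and 3 it was 5, 5 and 12, and with a replicate block 4. STAG2, a cohesin subunit, was at 8.29, 8.64 and 9.05 FPKM in PAL and 11.04, 11.2 and 10.5 FPKM in control libraries (limma adjusted p = 0.00450). ESPL1, separase, which cuts cohesin at anaphase, was the one that rose, to 14.98 ± 0.221 FPKM in PAL, against 12.9 ± 0.400 FPKM in control libraries (limma adjusted p = 0.00723). Both passed in all 17 alternatives.

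Regulators of CDK1 held the largest fall of the wider mitotic lists. WEE1, the kinase that holds CDK1 inactive, was at 4.27, 4.12 and 3.99 FPKM in PAL and 7.98, 8.75 and 7.68 FPKM in control libraries, a log2 fold change of -0.83 ± 0.055 (limma adjusted p = 1.26e-04). CDC25A, a phosphatase that activates CDKs, was at 28.9, 28.7 and 30.3 FPKM in PAL and 41.6, 42.2 and 46.5 FPKM in control libraries, a log2 fold change of -0.55 ± 0.047 (limma adjusted p = 4.23e-04). Both changes were larger than that of any of the 30 members. In this list 4 of 15 were lower (26.7%, against 14.5% of all genes) and 1, the cyclin CCNF, was higher. The balance turned to 3 lower and 6 higher with TPM and with plain read totals, and to 3 and 5 with quantile normalization. Of the other mitotic kinesins, 3 of 8 were lower (37.5%, against 14.5% of all genes) and 1 higher (12.5%, against 11.4%). With TPM 2 were lower and 2 higher, and with quantile normalization 2 and 1. Over all genes 9.54% were lower and 22.0% higher with TPM, and 11.6% and 16.9% with quantile normalization. The falls were led by KIF14, a kinesin of cytokinesis, at 14.1 ± 0.794 FPKM in PAL and 17.5 ± 0.204 FPKM in control libraries (limma adjusted p = 0.00455). The medians of the CDK1 regulators and spindle factors were -0.019 and -0.015, and changed sign with TPM (0.047 and 0.053), quantile normalization (0.014 and 0.027) and plain read totals (0.055 and 0.064). The median of the kinesins was -0.047, and changed sign with TPM (0.021) and plain read totals (0.032). Among spindle factors 4 of 16 were lower (25%, against 14.5% of all genes) and 1 higher (6.25%). With TPM the counts were 2 lower and 2 higher, and with quantile normalization 3 and 2. FAM83D, which brings a kinase to the spindle, was at 38.6, 38.8 and 38.6 FPKM in PAL and 61.8, 60.6 and 65.3 FPKM in control libraries, a log2 fold change of -0.68 ± 0.033 (limma adjusted p = 3.67e-05). Among cytokinesis factors 3 of 9 were lower (33.3%, against 14.5% of all genes) and 0 higher. With TPM the counts were 2 lower and 0 higher, and with quantile normalization 2 and 1. The falls of this list were led by MYH10, a non-muscle myosin heavy chain, at 21.2 ± 0.691 FPKM in PAL and 26.5 ± 0.722 FPKM in control libraries (limma adjusted p = 0.00156). WEE1, CDC25A, KIF14, FAM83D and MYH10 passed in all 17 alternatives.

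The remaining mitotic lists had few falls, where 14.5% of all tested genes were lower and 11.4% higher. APC/C subunits and partners had 1 lower and 2 higher of 17, checkpoint and outer kinetochore genes 1 lower and 3 higher of 19, and inner centromere genes 1 lower and 1 higher of 17. The lower shares were 5.88%, 5.26% and 5.88%, and the higher shares 11.8%, 15.8% and 5.88%. With TPM these 3 lists had 0 lower and 4, 4 and 5 higher, and the APC/C median was 0.057, against -0.0069 as deposited. Over all tested genes 9.54% were lower and 22.0% higher with TPM. SPC24, a subunit of the NDC80 complex that binds microtubules, was at 18.2, 18.1 and 17.1 FPKM in PAL and 14.0, 14.0 and 13.6 FPKM in control libraries (limma adjusted p = 0.00123). None of the 3 genes of the chromosomal passenger list passed in limma or with voom (0 of 3), 1 was under 0.05 before adjustment, and CDCA8, the borealin subunit, averaged 43.0 ± 0.727 FPKM in PAL and 42.4 ± 1.80 FPKM in control libraries. Of 14 regulators of G2/M transcription, 0 were lower and 2 higher (14.3%). E2F4, the E2F of the DREAM complex, was at 54.0, 53.9 and 52.4 FPKM in PAL and 42.5, 40.3 and 42.5 FPKM in control libraries (limma adjusted p = 5.27e-04). SPC24 and E2F4 passed in all 17 alternatives. The most similar cell cycle list, of 30 G1/S and replication genes, had 7 lower (23.3%) and 6 higher (20%). Both shares were above those of all tested genes, 14.5% and 11.4%, and the median log2 fold change was 0.0067. With TPM this list had 4 lower and 10 higher, with plain read totals 4 and 12, and with quantile normalization 5 and 8, with medians of 0.078, 0.090 and 0.055. In these scalings 9.54%, 9.22% and 11.6% of all genes were lower, and 22.0%, 25.3% and 16.9% higher. CDC6, which loads the replicative helicase, averaged 24.1 ± 0.863 FPKM in PAL and 34.6 ± 2.60 FPKM in control libraries, while E2F1, a transcription factor of S phase entry, averaged 24.3 ± 1.43 FPKM in PAL and 19.7 ± 0.589 FPKM in control libraries. Whether the members and the G1/S genes differ in how often they fell was not tested.

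Of the other genes with the largest changes in their lists, 4 passed in every alternative. KIF4A, a chromosome-binding kinesin, fell to 24.9 ± 0.334 FPKM in PAL, against 29.1 ± 0.219 FPKM in control libraries, and passed in 17 of 17 alternatives (adjusted p 1.37e-04 to 0.0181). CEP55, which recruits the abscission machinery, fell to 39.0 ± 0.309 FPKM in PAL, against 44.0 ± 0.530 FPKM in control libraries, and passed in 17 of 17 alternatives (adjusted p 9.73e-04 to 0.0326). ORC1, a subunit of the origin recognition complex, fell to 24.5 ± 0.169 FPKM in PAL, against 32.1 ± 1.19 FPKM in control libraries, and passed in 17 of 17 alternatives (adjusted p 3.15e-06 to 0.00515). The groups of these 3 did not overlap. E2F2, an activator E2F, rose to 3.59 ± 0.268 FPKM in PAL, against 2.65 ± 0.152 FPKM in control libraries, and passed in 17 of 17 alternatives (adjusted p 0.00181 to 0.0420). Calls of the others were less stable. STAG1, the paralog of STAG2, fell and passed in 16 of 17 alternatives, failing only without both libraries numbered 3, and CKAP5, a microtubule polymerase, fell and passed in 15, failing with TPM and plain read totals. FZR1, the APC/C activator of late mitosis and G1, and MAD2L1BP, which removes MAD2 from its targets, rose and passed in 15 of 17 each. CCNF, a cyclin that recruits substrates to a ubiquitin ligase, and ANAPC11, the RING subunit of the APC/C, rose and passed in 11 each. The falls of ANAPC5, MIS12 and CENPN passed in 6, 5 and 6 alternatives, and the rises of CENPH, KIF18B, KNSTRN and TFDP1 in 7, 8, 8 and 8. All of these but STAG1 and CKAP5 missed the threshold with at least 1 single library left out, with a highest adjusted p of 0.382, for ANAPC5, over the 17 alternatives in limma.

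**Figure D5:**
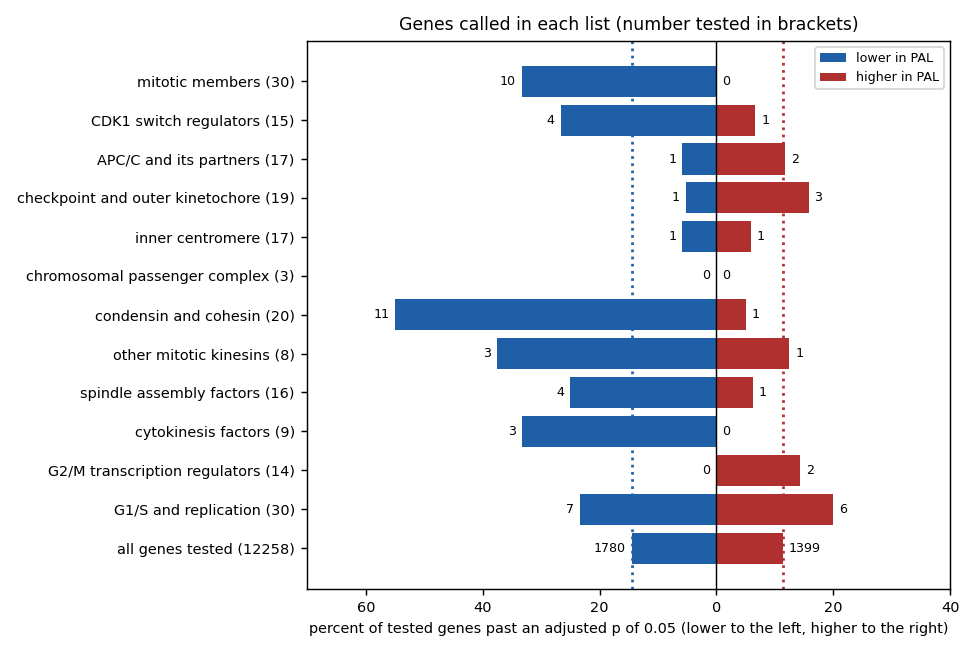
Percent of tested genes of each list that were lower in PAL (blue, to the left) or higher in PAL (red, to the right) at an adjusted p under 0.05 in limma, with the number of genes beside each bar and dotted lines at the shares of all 12258 tested genes, 14.5% and 11.4%. The members have 10 lower and 0 higher, condensin and cohesin 11 and 1, and the G1/S list 7 and 6. With TPM these counts are 5 and 2, 2 and 1, and 4 and 10, beside 9.54% and 22.0% of all tested genes.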

How the data were processed

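The authors deposited FPKM, read counts scaled to gene length and library size, for each gene in each library. Gene lengths and positions stand in columns beside them, per the file headers. The build hg38 is named in the submitters' processing notes. Aligner, counting tool and strand setting were not given in the sources used here. GENCODE 29 has identical coordinates for all 58735 genes.

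Value times gene length gave whole reads (100% of values above 0 within 0.01 of a whole number), from which depth was taken. The FPKM library size was 1.04 to 1.05 of the read total in PAL and 0.980 to 0.984 in control libraries. FPKM of overlapping genes is uncertain: 11 of 30 members share exon bases with another gene, 3 of them over 10%.

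Groups and replicate numbers came from the titles. The 12258 genes that reached 1 FPKM in 3 or more libraries were tested with limma 3.58.1 in R 4.3.3 on log2(FPKM + 1), two-sided, with a variance trend and Benjamini-Hochberg adjustment. This scale understates changes of low genes. No set test was run. The fit was also run on simulated reads, with changes larger than those of the members. The simulation held no group difference in the scaling of library size, so it gives no support for the members' calls. Chi-square per degree of freedom between replicates was 1.97 to 3.99, above the sampling noise of 1 library counted again; separate preparations from 1 culture could give such values. All 30 members are named, and of each further list the 2 largest rises and 2 largest falls that passed. Members and lists were chosen with earlier results of these data known. Results were recomputed under 17 alternatives: 2 pseudocounts, 2 filters, TPM, quantile normalization, voom, no trend, the block, each library left out, and, added after seeing the data, plain read totals and both libraries numbered 3 left out. Figures used matplotlib 3.10.9.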

Additional observations from a re-analysis of the deposited data

How the results depend on the processing

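Over the 17 alternatives no named gene that passed changed direction, but the balance of lower and higher calls turned over all genes and in the further lists with TPM, quantile normalization and plain read totals. ANLN, MKI67 and KIF23 passed as lower in all of them, and the count of lower members was within 1.5 times of 10 except with TPM (5, with 2 higher and a median of -0.031), quantile normalization (5, with 1 higher, 6 in all, and a median of -0.058) and plain read totals (5, with 2 higher and a median of -0.016), which also changed the call of BUB1B, CENPF, TPX2 and ECT2. Plain read totals change only the library size. Behind the deposited FPKM that size was 1.04 to 1.05 of the read total in PAL and 0.980 to 0.984 in control libraries. Why these sizes differ between groups, and the cause of the changes with TPM and quantile normalization, were not tested. The median was -0.13 without both libraries numbered 3, and -0.13 to -0.082 over the fits that left out 1 library, which gave 7 to 15 lower and 0 to 1 higher members (7 to 15 in all). Over all genes, 3179 passed, 1780 lower and 1399 higher. These counts were 1170 lower and 2697 higher with TPM, 1130 and 3097 with plain read totals, and 1428 and 2069 with quantile normalization. They were 2103 in all and 765 higher with no filter, and 1839 to 2714 in all, 1170 to 1506 lower and 669 to 1208 higher with 1 library left out. In the further lists 53 genes passed in all, of them 28 lower and 12 higher among mitotic genes and 7 lower and 6 higher in the G1/S list. Mitotic genes had 11 lower and 26 higher with TPM, 16 and 22 with quantile normalization and 11 and 32 with plain read totals, and 6 higher with no variance trend. With no filter 31 passed in all, 5 mitotic genes higher, and 4 lower and 3 higher in the G1/S list. That list had 4 lower and 10 higher with TPM and 4 and 12 with plain read totals. With 1 library left out, 29 to 50 passed in all, 16 to 29 mitotic genes lower and 5 to 7 higher, and 4 to 7 lower and 3 to 7 higher in the G1/S list. Deviations of same-numbered libraries from their group means correlated at -0.024, 0.027 and -0.045 for numbers 1, 2 and 3. Deviations within a group of 3 libraries are tied to each other, so these values cannot exclude a weak shared batch. The labels do not say whether the numbers pair libraries. With a replicate block 7 members were lower, 838 of all genes were higher, and 29 genes of the further lists passed, 15 mitotic genes lower and 5 higher. Depth limits CDC25C and NUSAP1, with 189 to 287 reads, most.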
